A study of Mus musculus with 6 samples.

Results

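The comparison was between a pair of preparation sets of single-cell long-read libraries from mouse tissue labelled as spleen. All 6 libraries of the study entered it. The 3 libraries without a replicate tag are called the first set and the 3 titled as replicate 2 the second set. Each set held 1 library of each of 3 protocols, namely 3′ chemistry (10x Genomics, v3.1), standard 5′ chemistry (v2), and modified 5′ chemistry, in which dNTP was added and extension was prolonged. Set against set was therefore read within protocol pairs, except in the tests of library measures and cell class shares, which did not use the pairing.

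All 6 libraries were labelled as female spleen at 10 weeks of age, and the series text gives the strain as C57BL/6. The full-length cDNA was sequenced on a Nanopore instrument. No treatment or allele was labelled, and the labels divide the libraries by set, by protocol and by extraction text. The extraction text of the first set describes spleens pressed through a strainer and treated with ACK, a buffer that bursts red cells. The extraction text of the second set describes pancreatic islets freed with collagenase, dispersed with Accutase, and stripped of insulin cDNA with Cas9, which conflicts with the tissue label. The labels do not say whether libraries came from separate animals, or which cell suspension fed which library. The p-values below therefore measure only the spread between these libraries. Everything that differed between the sets (the extraction, any difference of animal, the date, the sequencing run) cannot be told apart.

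The spleen filters blood and holds B cells, T cells, natural killer (NK) cells, macrophages and plasma cells. In the mouse the red pulp also makes red cells throughout life, so erythroblasts, the dividing precursors of red cells, are a normal part of it. Erythroblasts carry haemoglobin mRNA in great amounts, divide fast and build large stocks of histones, the proteins that pack newly made DNA. Lysis buffers remove mature red cells more readily than nucleated precursors, and burst cells leave free RNA in the suspension.

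Barcodes needed 200 or more genes and no more than 20% of counts from mitochondrial genes, which left 15578 of 20036 barcodes, 5214 in the first set and 10364 in the second. In the order 3′, standard 5′ and modified 5′, which all lists of values below follow, the first set kept 2331, 861 and 2022 cells and the second set 4045, 3208 and 3111. The deposited totals ranged from 723341 counts in the standard 5′ library of the first set to 2627253 in the 3′ library of the second set. That standard 5′ library was unlike the rest, since only 34.0% of its barcodes passed (78.3% to 89.9% elsewhere) and its cells were shallow (median 332 counts, 482.5 to 606 elsewhere). Kept barcodes averaged 65.7% ± 27.6 in the first set and 85.7% ± 4.23 in the second (SD, n = 3; exact permutation test, two-sided, p = 0.2, adjusted p = 0.5 over 5 library measures). Median counts per kept cell (p = 0.7), genes per cell thinned to 300 counts (p = 0.9) and mitochondrial counts (p = 0.6) were not separated by set in the same exact test. With 3 libraries against 3 the smallest p this test allows is 0.1. Just under the floor of 200 genes, at 190 to 199, lay 15, 126 and 18 barcodes of the first set and 94, 41 and 20 of the second. Just above it, at 200 to 209, lay 17, 131 and 24 and 75, 48 and 22. Pairs of libraries shared at most 16 cell barcodes.

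The tissue label was checked against markers. Genes of B cells and T cells were abundant in all 6 libraries, and Ighm, the heavy chain of IgM, was at 2053 CPM (counts scaled to 1000000 per library) or more in each. Insulin and glucagon transcripts were found in the modified 5′ library of the second set alone, with 48 counts of Ins2, 15 of Ins1 and 6 of Gcg among 2027159 counts in kept cells. Those 3 genes were at 0 counts in the other 5 libraries, where 3 counts, the limit that a count of 0 allows, come to between 1.26 and 8.49 CPM. Of 21 listed endocrine genes, 11 had counts in kept cells of the modified 5′ second-set library (101 counts), against 1 or 2 in each other library. The extraction text of the second set names removal of insulin cDNA, so low Ins1 and Ins2 there say little about the tissue. In its markers the second set was thus mainly lymphoid, as its tissue label says and its extraction text does not. Xist, an X-linked gene that entered no comparison, was at 512, 85.7 and 118 CPM in the first set and at 9.90, 0.493 and 4.63 CPM in the second, although all 6 libraries were labelled female.

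Summed over all kept cells, 336 of 10451 tested genes (3.22%) differed between the sets at an adjusted p under 0.05 (edgeR quasi-likelihood test with the protocol as a block, Benjamini-Hochberg). Of these, 294 (2.81% of those tested) were lower in the second set and 42 (0.402%) were higher. Without TMM scaling the split was 272 lower and 92 higher. The falls were led by genes of red cells and their precursors. The rises were led by an immunoglobulin chain and a noncoding RNA, and most of the other rises were smaller than the leading falls. In sums over cells, fewer cells of a type and less RNA per cell cannot be told apart. With the erythroid-like clusters left out, a setting chosen after seeing the data, 13 genes passed, 6 higher and 7 lower, all of them among the 336. Without the 3′ pair 109 genes passed (104 lower and 5 higher), with DESeq2 171 (166 and 5), and without the protocol block 59 (58 and 1), so that few of the higher calls held in these settings. In barcodes with 300 or more genes 232 passed, 220 lower and 12 higher, so the higher calls depended on shallow barcodes too.

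**Figure D1:**
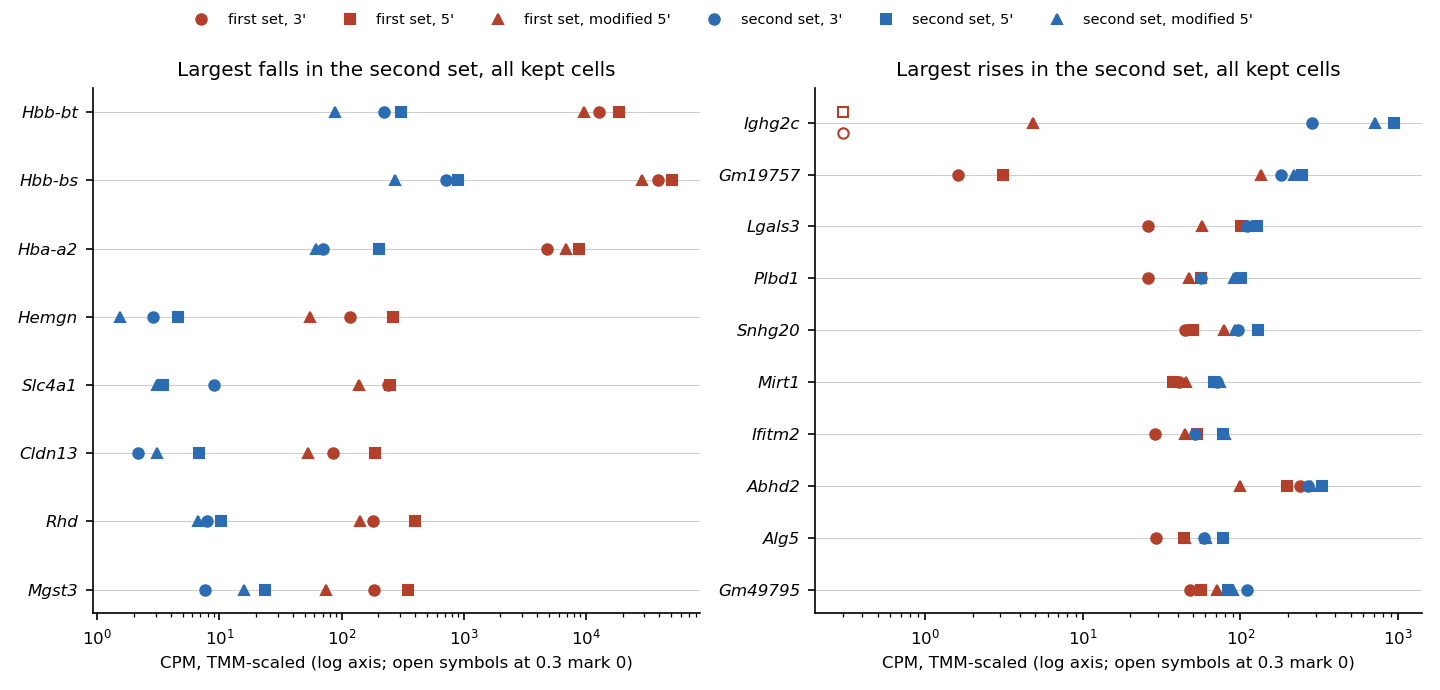
Level of 8 of the 10 genes with the largest falls and of the 10 with the largest rises in the second set, in CPM on a log axis, with 1 point per library, coloured by set and shaped by protocol. The 8 falling genes separate the sets in every protocol by more than 4-fold, while Ighg2c and Gm19757 are the widest of the rises and several of the other rising genes overlap or nearly touch between the sets.

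Haemoglobin genes fell the most in the second set. All 4 tested members of the list (Hbb-bs, Hbb-bt, Hba-a1 and Hba-a2, the adult beta and alpha chains) passed, with a median log2 difference of -6.08 beside -0.02 over all genes tested. Hbb-bs was at 38844, 50922 and 28642 CPM in the first set and at 717, 904 and 273 CPM in the second. No library of one set came near any library of the other. The difference was -6.09 ± 0.22 (log2, SE; adjusted p = 1.22e-14). Hba-a2 was at 4811, 8726 and 6911 CPM against 71.1, 203 and 62.4 CPM (-6.08 ± 0.24). The alpha genes are near-identical copies, as are the beta genes, so the split of counts within each pair is uncertain, although all 4 fell. Together the haemoglobin genes took 5.58% ± 1.50 of kept counts in the first set and 0.0935% ± 0.0477 in the second (SD, n = 3; exact permutation p = 0.1, the smallest possible, adjusted p = 0.5).

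The other erythroid genes followed, with 24 of 25 tested members lower, none higher and a median of -3.71. Rhd, which encodes the Rh blood group antigen, was at 181, 398 and 141 CPM in the first set and at 7.94, 10.3 and 6.70 CPM in the second (-4.74 ± 0.20, adjusted p = 1.59e-13). Slc4a1, the band 3 anion exchanger of the red cell membrane, was at 239, 247 and 139 CPM against 9.02, 3.43 and 3.09 CPM (-5.22 ± 0.23). Every first-set library was above every second-set library by more than 10-fold for both genes. Genes of the membrane skeleton and of surface antigens fell alike, among them Ank1 (ankyrin, -5.34) and Kel (-5.18). So did the erythroid transcription factors Klf1 (-4.05), Tal1 (-3.71), Gfi1b (-2.71) and Nfe2 (-2.66), and the erythropoietin receptor Epor (-4.17). The smallest differences among the 24 were those of Car1 (carbonic anhydrase 1, -0.88), Fech (ferrochelatase, the last step of haem synthesis, -1.33) and Bpgm (-1.47). Bnip3l, which clears mitochondria from maturing red cells but is also made in other cells, was at -0.28 and did not pass. Hemgn, Cldn13 and Mgst3, also among the 10 largest falls, lay between -5.49 and -3.64.

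Haemoglobin counts were also found outside erythroid-like clusters. A haemoglobin count was found in 33.5%, 23.8% and 38.4% of B-like cells of the first set and in 1.54%, 2.44% and 3.29% of those of the second. T-like cells gave much the same shares, 35.7%, 20.1% and 41.6% against 0.683%, 1.15% and 2.36%, and NK-like cells 33.0%, 21.1% and 48.8% against 0%, 0% and 2.54%. None of these cell types is known to make haemoglobin in quantity. In T-like cells the level gave a less even picture than the share of cells. In B-like cells the haemoglobin genes summed to 5011, 3818 and 7674 CPM (here without TMM scaling) against 598, 332 and 476 CPM, and all 3 tested genes fell. In T-like cells they summed to 715, 943 and 8520.2 CPM against 19.4, 818 and 39.6 CPM, the sets overlapped, and none of the 3 tested genes passed (edgeR, adjusted p = 0.352 for Hbb-bs). The 818 CPM came from 12 of 1046 cells. NK-like cells were at 614, 659 and 1170 CPM against 0, 0 and 51.0 CPM, without overlap. Barcodes dropped for too few genes were rich in haemoglobin in the first set, at 78.2%, 24.8% and 81.3% of their counts, and less so in the second, at 3.64%, 6.42% and 17.4%. Whether free RNA set the lymphocyte values was not tested.

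**Figure D2:**
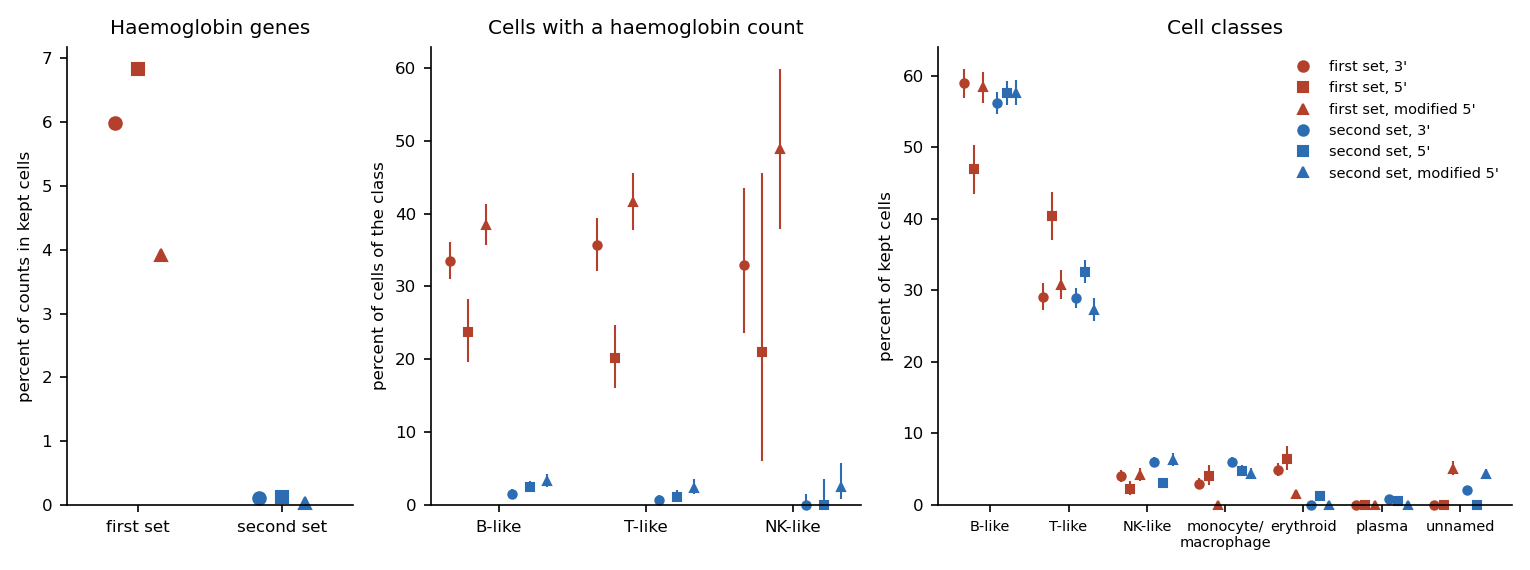
Percent of kept counts from haemoglobin genes, percent of B-like, T-like and NK-like cells with a haemoglobin count (bars are exact 95% intervals, counting error only), and percent of kept cells in each class, for each library of the first and second set. The haemoglobin percent of counts separates the sets in all 3 protocols, as does the percent of cells with a haemoglobin count in each of the 3 lymphocyte classes, whereas the B-like and T-like shares overlap.

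Cells were clustered in each library apart and named from marker genes. B-like cells made up 59.0%, 46.9% and 58.4% of kept cells in the first set and 56.3%, 57.6% and 57.7% in the second, and T-like cells 29.1%, 40.4% and 30.8% against 29.0%, 32.6% and 27.3%. Neither class was separated by set (exact permutation test, p = 1 and p = 0.5). NK-like cells were at 4.03%, 2.21% and 4.25% against 5.96%, 3.15% and 6.33%, higher in the second set in all 3 pairs, but the sets overlapped (exact p = 0.3, adjusted p = 0.5 over 5 classes). Erythroid-like clusters held 115, 55 and 30 cells of the first set, which is 4.93%, 6.39% and 1.48%, and 39 cells (1.22%) of the standard 5′ library of the second set. In the other 2 second-set libraries no cluster took that name, although at a finer clustering (Leiden resolution 1.0 in place of 0.5) 35 cells of the modified 5′ library did (1.13%). The genes that name the class are the ones that differ, so a test of these shares has no weight of its own. It was run as 1 of the 5 classes (exact permutation p = 0.1, adjusted p = 0.25) and so entered the adjusted p of the other classes. An unnamed cluster of 55 cells in the 3′ library of the second set, led by Hist1h1b, Pclaf and Mki67 and including Car1, and one of 93 cells in its modified 5′ library, led by Top2a, Stmn1 and Hmgb2, held dividing cells there. The cluster of 55 cells (1.36%) had 3 erythroid markers in its top 50 genes and 1 in its top 10. Only the rule of 2 own markers in the top 10, set after the clusters were seen, refused it the erythroid-like name. Its cells therefore stayed in the second set where erythroid-like clusters were left out. Monocyte- or macrophage-like cells were at 2.96%, 4.07% and 0% against 5.98%, 4.80% and 4.40% (exact p = 0.1, adjusted p = 0.25). At Leiden resolution 1.0 the mean difference went from 2.72 to 0.925 points (exact p = 0.6), with 3.21% against 1.99% in the modified 5′ pair. The 0% stands beside an unnamed cluster of 5.09% in the same library, led by Jchain, Lyz2 and Slpi. Only the immunoglobulin rule, set after the clusters were seen, refused that cluster the monocyte- or macrophage-like name. Under that name its 5.09% would lie above the 4.40% of the modified 5′ second-set library, and the sets would overlap. The exact p of 0.1 thus rests on that rule and is no support for a difference.

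Most haemoglobin counts of the first set lay in the erythroid-like clusters, 95.4%, 97.0% and 50.0% of them, and another 33.7% in the modified 5′ library lay in its unnamed cluster. In those clusters haemoglobin made up 410241 CPM or more of the counts in each first-set library. The erythroid-like cluster of the standard 5′ second-set library differed in this, at 11824 CPM, although its cells were as deep (median 2010 counts, against 1946, 1008 and 1374.5 in the first set). In the 1 second-set library where such a cluster was named, both its share of cells and its haemoglobin level were thus below those of the same protocol in the first set.

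**Figure D3:**
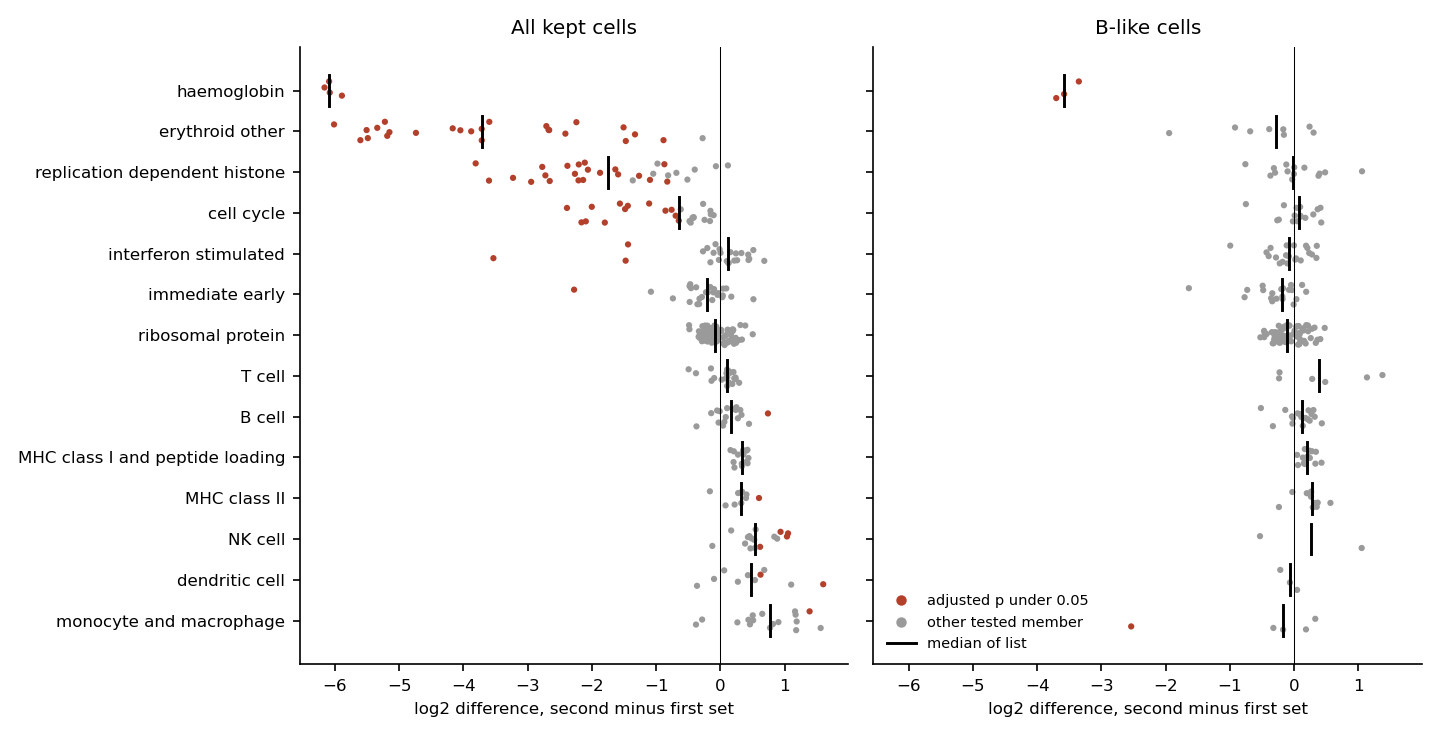
Log2 difference, second minus first set, of each tested member of 14 gene lists, in all kept cells and in B-like cells. Red points passed at an adjusted p under 0.05, grey points did not, and black bars are medians; haemoglobin, erythroid, histone and cell cycle members lie almost all below 0 in all kept cells, while in B-like cells the histone and cell cycle medians are near 0.

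Dividing-cell genes were lower in the second set as well. Of 25 tested cell cycle genes 13 fell, none rose, and the median was -0.65. Mki67, a marker of proliferating nuclei, was at 318, 229 and 109.7 CPM in the first set and at 49.1, 32.0 and 36.6 CPM in the second (-2.39 ± 0.20, adjusted p = 2.75e-08). The lowest first-set library was above the highest second-set library by over 2-fold. Ube2c, a ubiquitin-conjugating enzyme of mitotic exit (-2.09 ± 0.19), Rrm2, a subunit of ribonucleotide reductase (-2.16 ± 0.31), cyclin A2 (Ccna2, -2.001 ± 0.25), Cdk1 (-1.80), Birc5 (-1.56) and Top2a (-1.48) fell too. The 6 tested Mcm genes, which encode the replicative helicase and are made before S phase, lay between -0.48 and -0.15 and did not pass. Without the 3′ pair 4 of the 25 passed, all lower, with a median of -0.68, and Rrm2 (-1.93, adjusted p = 0.104) was not among them.

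Replication-dependent histone genes fell in 21 of 30 tested members, none rose, and the median was -1.75. These genes are switched on in S phase, and their mRNAs mostly end in a stem-loop and not in a poly(A) tail. Hist1h3c was at 97.5, 18.8 and 17.3 CPM in the first set against 4.69, 2.29 and 2.58 CPM in the second (-3.81 ± 0.35, adjusted p = 1.06e-07). Hist1h1a was at 107, 31.3 and 12.5 CPM against 7.22, 4.57 and 4.12 CPM (-3.23 ± 0.34). In both genes the first-set 3′ library was the highest of the 6 by over 3-fold, and the sets did not overlap. Summed over the 59 listed members, the first set held 3678, 1209 and 1224 CPM and the second 612, 542 and 652 CPM. Without the 3′ pair only 4 of the 30 passed, all lower, with a median of -1.09, so that this list's count rested on that pair. Hist1h1a was then at -2.14 (adjusted p = 0.113) and Hist1h3b at -2.41 (adjusted p = 0.0603). Histone genes of the Hist1 cluster are close copies of each other, and the split of counts between them is uncertain.

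A large share of the counts of these lists lay in few cells. In the first set, erythroid-like clusters held 4.93%, 6.39% and 1.48% of the cells but 63.6%, 62.3% and 27.3% of the cell cycle counts and 82.9%, 73.1% and 46.9% of the histone counts. In the second set the standard 5′ cluster held 33.7% and 19.4%, and the unnamed clusters of the 3′ and modified 5′ libraries held 42.6% and 35.4% of the cell cycle and 35.7% and 37.0% of the histone counts. For Mki67 alone the erythroid-like share was 93.2%, 90.4% and 67.5% in the first set. Left without the erythroid-like clusters, no cell cycle and no histone gene passed (edgeR, 861 of all genes at an unadjusted p under 0.05), the medians were 0.24 and -0.13, and Mki67 was at 0.38. That setting removed cells from all 3 first-set libraries and from 1 of the second. In B-like cells 0 of 16 tested cell cycle genes and 0 of 14 histone genes passed, with medians of 0.07 and -0.02.

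**Figure D4:**
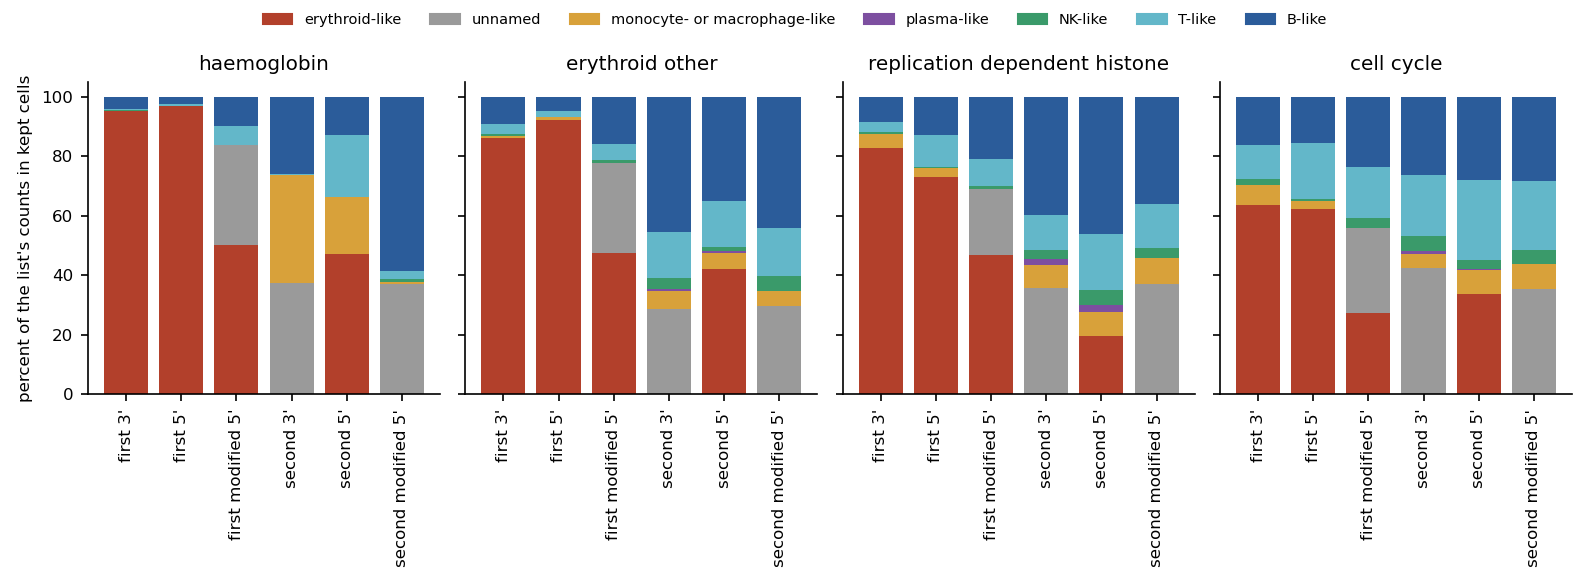
Percent of the counts of the haemoglobin, other erythroid, replication-dependent histone and cell cycle lists that lie in each cell class, stacked to the whole, for each library of the first and second set. Erythroid-like clusters hold 27.3% to 97.0% of these counts in the first set. In the 3′ and modified 5′ libraries of the second no cluster has that name. Unnamed clusters, pooled whatever their cells, there hold a part of the cell cycle and histone counts.

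The interferon-stimulated list split. Of 24 tested members 3 fell, none rose, and the list median was 0.11. Rsad2, the antiviral enzyme viperin, was at 126, 122 and 56.7 CPM in the first set and at 8.30, 7.999 and 9.28 CPM in the second (-3.53 ± 0.24, adjusted p = 7.65e-10). Isg15, a ubiquitin-like modifier (-1.44 ± 0.25, adjusted p = 0.000801), and Isg20, an RNA exonuclease (-1.47 ± 0.18, adjusted p = 6.15e-06), fell less. Isg15 was at 117 CPM in the modified 5′ library of the first set, under the 124 CPM of the standard 5′ library of the second, so its sets overlapped, and without the 3′ pair it did not pass (-1.09, adjusted p = 0.29). The other 21 members, among them Ifit1, Ifit3 and Irf7, lay between -0.27 and 0.68 and did not pass. The 3 falling genes had 91.8%, 71.8% and 28.8% (Rsad2), 82.7%, 71.2% and 22.1% (Isg15) and 81.3%, 84.2% and 37.3% (Isg20) of their first-set counts in erythroid-like clusters. With those clusters left out no member of the list passed. Rsad2 was then at -1.59 (adjusted p = 0.102), and Isg15 and Isg20 were at 0.10 and 0.26. That setting took cells from every first-set library but from the standard 5′ library alone of the second. It therefore could not compare like cells between the sets.

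Immediate early genes, a set that handling and dissociation can switch on quickly, had 1 of 26 tested members pass, with a median of -0.21. Of all genes tested 3.22% passed, so this count and the others of this paragraph do not by themselves set the lists apart. That gene was Ppp1r15a, the stress-induced phosphatase subunit GADD34, at 76.9, 113 and 44.2 CPM against 16.6, 14.3 and 13.4 CPM (-2.28 ± 0.23, adjusted p = 3.17e-07). It too had 59.2%, 83.3% and 34.8% of its first-set counts in erythroid-like clusters, and without those clusters it was at -0.98 (adjusted p = 0.317). The limit of that setting given for the interferon-stimulated list holds here too. No gene passed among 14 heat shock and chaperone genes (median 0.15), 15 glycolysis and hypoxia genes (0.27), 10 mitochondrial mRNAs (0.01) or 77 ribosomal protein genes (-0.08). Of 70 nuclear genes of oxidative phosphorylation 1 fell, Cox6b2 (-1.85 ± 0.44), which did not pass without the 3′ pair (-1.50, adjusted p = 0.516).

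Few lymphocyte identity genes passed, but only 3.22% of all genes tested did, so these counts alone do not set the lists apart. Of 20 T cell genes none passed (median 0.11), with Cd3d at 0.02 and Trbc2 at 0.24. Of 18 B cell genes 1 rose, with Cd79a at 0.27 and Ms4a1 at -0.01 not passing. The riser was Ighm, at 2053, 7639 and 5895 CPM against 5726, 8681 and 8732 CPM (0.74 ± 0.19, adjusted p = 0.0316), and its sets overlapped. In B-like, T-like and NK-like cells alone, without the unnamed and plasma-like clusters, Ighm was at -0.49. Of 10 MHC class II genes 1 rose, H2-Ab1, at 1854, 2906 and 3279 CPM against 2865, 4951 and 4362 CPM (0.60 ± 0.15, adjusted p = 0.026). Without the 3′ pair neither passed, with Ighm at 0.39 (adjusted p = 0.765) and H2-Ab1 at 0.60 (adjusted p = 0.331), and H2-Ab1 did not pass without the standard 5′ pair either (0.55, adjusted p = 0.131). Neither passed at 300 genes or more per barcode. None of 15 MHC class I and peptide loading genes passed, though all 15 were fitted above 0 (median 0.34).

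A minority of NK and myeloid cell genes passed, where of all genes tested 0.402% were higher and 2.81% lower in the second set. Of 16 NK cell genes 4 rose, none fell, and the median was 0.53. Klra8, the Ly49H receptor, was at 31.4, 12.5 and 22.1 CPM in the first set and at 52.0, 53.1 and 50.5 CPM in the second (1.05 ± 0.22, adjusted p = 0.00536). The other risers were Klra7 (1.04 ± 0.23), the perforin gene Prf1 (0.94 ± 0.23) and Klra4 (0.62 ± 0.17). In Klra7 and Prf1 the standard 5′ pair differed by 0.06 and 0.14 only. Of Klra8 counts 91.7% or more lay in NK-like clusters in every library, and the share of NK-like cells was itself higher in all 3 pairs, as given above. At Leiden resolution 1.0 that share was 1.89%, 2.79% and 5.59% against 2.47%, 3.15% and 3.09%, so that the modified 5′ pair turned and the mean difference was -0.519 points. Klra genes are near-identical copies. None of the 16 passed in DESeq2 or without the protocol block. Each of the 4 calls was lost on leaving out some pair: without the 3′ pair Klra7 (0.69), Prf1 (0.92) and Klra4 (0.54), without the standard 5′ pair Klra4 (0.59), and without the modified 5′ pair Klra8 (1.02, adjusted p = 0.0537) and Prf1 (0.78).

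Of 17 monocyte and macrophage genes 1 rose and none fell, with a median of 0.77. It was C1qa, a chain of complement C1q made by tissue macrophages, at 3.25, 6.26 and 15.4 CPM against 17.0, 25.1 and 22.2 CPM (1.39 ± 0.38, adjusted p = 0.045). Among 10 dendritic cell genes the receptor Flt3 (3.25, 3.13 and 7.69 CPM against 14.4, 11.9985 and 15.5 CPM, 1.60 ± 0.42) and the protease inhibitor Cst3 (0.63 ± 0.16) rose. Neutrophil genes went both ways. The granule genes Ngp (2.17, 0 and 22.1 CPM against 32.5, 0.571 and 48.4 CPM, 2.06 ± 0.40) and Lcn2 (1.91 ± 0.51) rose. Elane, the elastase of immature granulocytes, was at 42.2, 0 and 76.0 CPM against 9.02, 0 and 0 CPM and fell (-3.44 ± 0.52, adjusted p = 0.000142). All 3 were low or at 0 in the standard 5′ libraries of both sets. Elane did not pass in DESeq2 (adjusted p = 0.9999) or without the block (0.589), and in those settings no monocyte and macrophage, dendritic cell or neutrophil gene passed. Among the 10 largest rises were also Lgals3, the macrophage lectin galectin-3 (26.0, 100.2 and 56.7 CPM against 109, 127 and 109.8 CPM, 1.19 ± 0.23), Plbd1 (0.98 ± 0.18) and Ifitm2 (0.78 ± 0.19). They further included the noncoding RNAs Snhg20 (0.83 ± 0.19), Mirt1 (0.78 ± 0.18) and Gm49795 (0.75 ± 0.19), and Abhd2 (0.77 ± 0.20) and Alg5 (0.76 ± 0.19). Without the 3′ pair all genes called higher in this paragraph but Abhd2 lost the call, with adjusted p from 0.113 (Plbd1, 0.92) to 0.885 (Lcn2, 0.75) and Lgals3 at 0.70. Leaving out the standard 5′ pair ended the call of C1qa (1.32), and leaving out the modified 5′ pair those of Cst3 (0.62), Ifitm2 (0.80) and Abhd2 (0.47). At 300 genes or more per barcode no monocyte and macrophage or dendritic cell gene passed, while 2 neutrophil genes were higher and 1 lower, and 3 NK cell genes were higher. Lgals3 and Plbd1 did not pass in that setting.

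The largest rise was in Ighg2c, the constant region of IgG2c, with 0, 0 and 5 counts in the first set and 791, 1658 and 1394 counts in the second. Its adjusted p was 1.31e-13, but its fitted log2 difference of 8.27 depends on the prior count and is no bound. The counts came from few cells, 13, 10 and 10 in the second set, and the fullest cell held 63.8%, 97.6% and 61.8% of them. Ighg2c and the other IgG constant regions are close copies, so the split between them is uncertain. Of 12 tested plasma cell genes this was the 1 that passed (median 0.46). Plasma-like clusters were named in the second set only, at 0.791% of the 3′ and 0.623% of the standard 5′ library. In the first set 46.6% of the plasma cell list's counts in the 3′ library lay in its monocyte- or macrophage-like cluster, so the missing name is no absence. None of 14 tested immunoglobulin variable segments and none of 3 tested T cell receptor variable segments passed. Nor did the single tested gene of the platelet, stromal and endothelial, and pancreatic endocrine lists, while no pancreatic exocrine gene was abundant enough to test. Of 8 nuclear long noncoding RNAs the 1 that passed was Mirt1, named above.

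Cpne8 and Gm19757 were followed inside lymphocyte classes. Cpne8, a gene for a calcium-dependent phospholipid-binding protein (copine; mm10, chr15:90487482-90679432, protein coding, minus strand), was singled out after its values were seen. It was at 103, 113 and 52.9 CPM in the first set and at 20.2, 19.9975 and 19.1 CPM in the second (-2.12 ± 0.21, adjusted p = 2.88e-07). All 3 first-set libraries were above all second-set libraries, which lay close together. Its counts were spread, with 42.1%, 41.7% and 30.9% in B-like and 37.9%, 47.2% and 50.9% in T-like cells of the first set. In T-like cells it was at 155, 158 and 96.6 CPM against 38.6, 34.6 and 27.7 CPM (-1.99 ± 0.25, adjusted p = 0.00231), and 9.73%, 4.89% and 4.34% of first-set cells had a count against 2.13%, 1.82% and 1.65%. In B-like cells it was at 84.7, 105 and 32.1 CPM against 17.3, 15.4 and 21.04 CPM (-1.92 ± 0.29, adjusted p = 9.91e-06). Cpne8 was the 1 gene of 6606 tested (0.0151%) that passed in T-like cells, and without the 3′ pair no gene passed there (edgeR, 0 genes, 231 at an unadjusted p under 0.05).

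Gm19757, a long intergenic noncoding RNA of unknown role (mm10, chr6:105481266-105492668, minus strand), rose in the second set. It had 3, 1 and 141 counts in the first set and 499, 432 and 425 in the second, which is 1.62, 3.13 and 136 CPM against 180.1, 247 and 219 CPM. The modified 5′ library of the first set stood with the second set and not with its own: the log2 differences were 6.11, 5.91 and 0.69 in the 3 pairs. The fitted difference was 2.74 ± 0.53 (adjusted p = 0.00213), and 1.69 without the 3′ pair, when it did not pass (adjusted p = 0.234). Nor did it pass in DESeq2 (4.91, adjusted p = 0.0538). It passed in B-like cells (1.06, 6.99 and 115 CPM against 179, 249 and 238 CPM, 2.58 ± 0.31, adjusted p = 7.47e-09). In T-like cells, with counts at 0 in 2 of the 3 first-set libraries, it was at 0, 0 and 238 CPM against 264, 326 and 293 CPM and did not pass (adjusted p = 0.582).

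**Figure D5:**
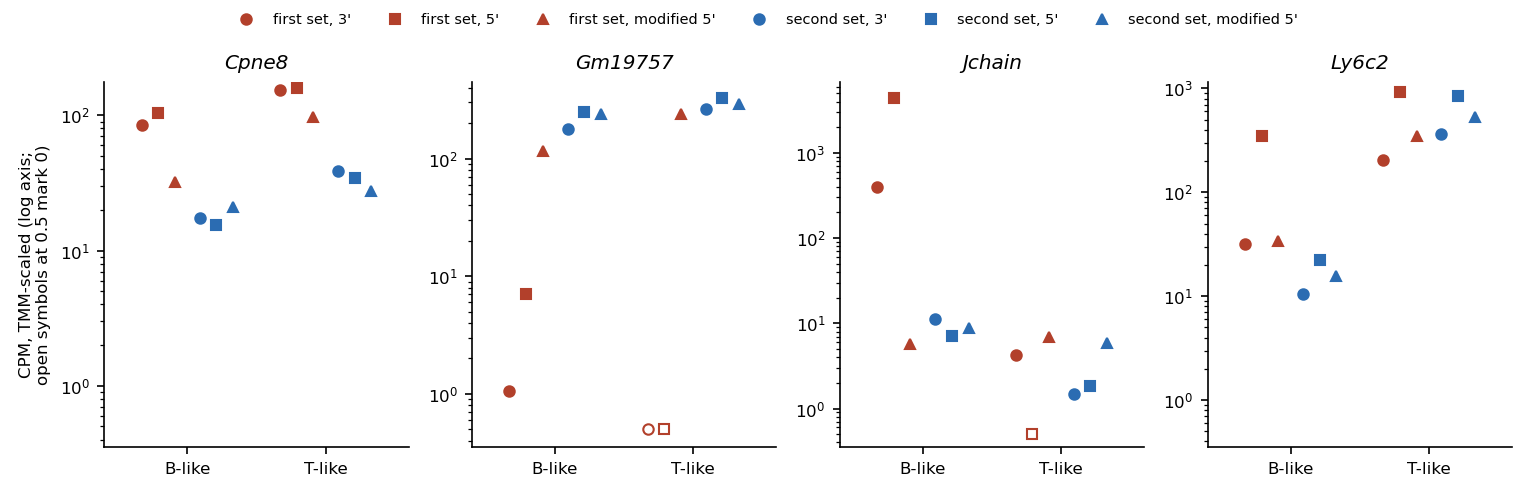
Level of Cpne8, Gm19757, Jchain and Ly6c2 in B-like and in T-like cells, in CPM on a log axis, with 1 point per library coloured by set and shaped by protocol. Cpne8 is higher in the first set in both classes, Gm19757 is low in 2 of the 3 first-set libraries, and Jchain in B-like cells is high in the 3′ and standard 5′ libraries of the first set alone.

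In B-like cells 10 of 8322 tested genes (0.12%) passed, 9 lower in the second set and Gm19757 higher. The 9 were 3 haemoglobin genes, Cpne8, Jchain, Ly6c2, Lgals1, and the light chain genes Iglc1 and Iglv1. Jchain, which links IgM and IgA multimers in plasma cells, was at 402, 4346 and 5.66 CPM against 11.3, 7.10 and 8.86 CPM (-6.58 ± 0.44, adjusted p = 1.05e-20). The modified 5′ library of the first set lay with the second set. Jchain counts were found in 0.291% and 1.98% of B-like cells of the 3′ and standard 5′ first-set libraries, where no plasma-like cluster was named, and over all kept cells Jchain did not pass (0.78 ± 0.24, adjusted p = 0.109). Ly6c2, a surface protein of monocytes, plasma cells and some T cells, followed the standard 5′ library (31.8, 349 and 34.0 CPM against 10.5, 22.5 and 15.5 CPM, -2.54 ± 0.32). Iglc1, a lambda light chain constant region, was at 2190.0, 7854 and 2107 CPM against 1153, 1981 and 1376 CPM (-1.17 ± 0.19). Of all Jchain counts in those 2 libraries, 380 of 676 and 622 of 710 lay in B-like cells, and the part of these cells in the calls for Ly6c2 and the light chains was not tested. Hbb-bs in B-like cells was at 3420.0, 3047 and 5668 CPM against 383, 247 and 359 CPM (-3.58 ± 0.19), a smaller difference than over all kept cells. Iglc1 did not pass without the standard 5′ pair (-0.75, adjusted p = 0.216). Without the modified 5′ pair 24 genes passed in all, and without the protocol block 2.

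The set difference was compared between kits, the 5′ pairs against the 3′ pair, in 1 model. Of 10451 genes 4 (0.0383%) differed: Hist1h2ab, Igha, Ighg2b and Igkc. Hist1h2ab was at 229.6, 47.0 and 59.6 CPM against 8.30, 9.71 and 24.7 CPM, with pair differences of -4.63, -2.16 and -1.24. It thus fell in all 3 pairs, the most with the 3′ kit. The set difference was likewise compared between T-like and B-like cells, and 5 of 8497 genes (0.0588%) differed: Cd74, Ighm, Igkc, Lgals1 and Ly6c2. Cpne8 was not among them, nor was any haemoglobin gene.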

How the data were processed

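The authors deposited, for each of 6 libraries, a matrix of unnormalized counts with gene symbols in rows and cell barcodes in columns. The build mm10 and, for the second set, Seurat are named per the submitters' processing notes. The aligner, the annotation, the use of strand and any collapse of molecular identifiers have no statement in the labels and file headers used here, so reads of overlapping antisense genes cannot be told apart. The members and gene lists were chosen with earlier results of these data known.

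Barcodes holding 200 or more genes and no more than 20% mitochondrial counts were summed per library (depth of 353431 to 2379955 counts per library after filtering). X-linked and Y-linked genes (563) were left out by chromosome in GENCODE M21 or RefSeq, where 148 of 20279 symbols had no match and stayed in. Sums were tested with the quasi-likelihood test of edgeR 4.0.16 under R 4.3.3, with terms for protocol and set, TMM factors and filterByExpr, at a Benjamini-Hochberg adjusted p of 0.05. The fit leaves 2 residual degrees of freedom. CPM are counts per 1000000 TMM-scaled counts, with some exceptions that have no TMM scaling. These are the summed haemoglobin levels in lymphocyte classes and in clusters, the limits for a count of 0, and Xist, taken over every barcode. The ± after a log2 difference is its standard error. The pairing is by protocol, from the labels; the replicate tag is the set itself. The fitting script was tested on simulated data.

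Each library was clustered alone with scanpy 1.11.5 (Python 3.11.15): counts scaled to 1000 per cell, 2000 variable genes without haemoglobin genes and receptor segments, 30 principal components, 15 neighbours, Leiden resolution 0.5. A cluster took a type's name where 3 or more of that type's markers ranked in its top 50 by fold (genes seen in 10% of its cells or more, 50 CPM added) and no other type had more markers in its top 10. After the clusters were seen, a name was also refused with fewer than 2 own markers in that top 10, or, outside B and plasma types, where immunoglobulin constant genes equalled or outnumbered them there. Doublets were not removed. Intervals and the limit for a count of 0 (3 counts) cover counting error only.

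Named genes were the 10 largest changes each way among genes that passed, at a mean of at least 50 CPM with 1 direction in all 3 pairs (in B-like and T-like cells 5 each way at 100 CPM), and up to 4 members of each of 27 lists. Some genes that this rule selects are not reported here. Genes chosen after their values were seen are Cpne8, Jchain, Ighm, Igha, Ighg2b, Igkc, Ighg3, Cd74, Ccl6 and Prtn3. Alternatives were DESeq2 1.42.0, other scalings, filters and cell selections, no protocol block, and leaving out each protocol pair.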

Additional observations from a re-analysis of the deposited data

Results flagged for a closer look

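In 4 genes the set difference itself differed between the 5′ and the 3′ kits by a test of the interaction (edgeR, 5′ minus 3′, log2). Hist1h2ab differed by 3.20 (adjusted p = 0.00483), since its fall was steepest in the 3′ pair. Igha differed by 6.20 (adjusted p = 3.54e-07), with 304, 3.13 and 12.5 CPM in the first set and 181, 30.9 and 606 CPM in the second. One cell held 98.6% of Igha counts in the 3′ first-set library and one held 93.6% in the 3′ second-set library. Ighg2b differed by -12.2 (adjusted p = 0.00153), with 2.71, 0 and 728 CPM against 812, 19.4 and 7.73 CPM, and 1 cell held 97.8% of its counts in the modified 5′ first-set library. Igkc, the kappa light chain, differed by -1.64 (adjusted p = 0.00483), with 5585, 18626 and 18359 CPM against 20401, 21752 and 21706 CPM. In each of these genes 1 pair sets the difference from the rest, and the 3′ kit is a single pair. None of the 4 passed in DESeq2.

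In 5 genes the set difference differed between T-like and B-like cells by the same kind of test (T-like minus B-like, log2). Ly6c2 differed by 2.86 (adjusted p = 4.65e-21), with 206, 929 and 352 CPM in T-like cells of the first set and 367, 854 and 535 CPM in those of the second, beside its fall in B-like cells. Igkc differed by 1.07 (adjusted p = 4.69e-14), Ighm by 0.67 (adjusted p = 1.4e-06), Lgals1 by 1.05 (adjusted p = 0.0311) and Cd74 by 0.44 (adjusted p = 0.000151). For Igkc, which T cells do not make, T-like cells held 122, 242 and 203 CPM against 184, 309.7 and 509 CPM, and B-like cells 10729, 41191 and 17448 CPM against 11803, 19248 and 16610.0 CPM. The highest B-like value of Igkc and Ighm was that of the standard 5′ first-set library, where the B-like class also held most Jchain counts. The part of that library in these differences was not tested.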

How the results depend on the processing

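Of the 336 genes that passed over all kept cells, 171 passed in DESeq2 and 59 without the protocol block (no pairing). Of the settings chosen after seeing the data, 202 genes passed with counts thinned to each library's B-like total, 13 without erythroid-like clusters and 7 in B-like, T-like and NK-like cells alone. Leaving out 1 protocol pair gave 109 (without 3′) to 391 (without modified 5′), and keeping barcodes with 300 or more genes gave 232. In B-like cells the count of 10 became 5 in DESeq2, 6 without haemoglobin genes, 19 without the filter on low counts, 2 without the protocol block, and 8 to 24 without 1 pair. In T-like cells the count of 1 became 13 without the filter, 0 without the block (82 at an unadjusted p under 0.05 in edgeR), and 0 to 14 without 1 pair. The 4 genes of the kit comparison became 0 in DESeq2 (9 at an unadjusted p under 0.05) and 20 without the filter, and the 5 of the class comparison 1 in DESeq2 and 3 at Leiden resolution 1.0. The gene fits were paired by protocol, apart from the setting without the block. The exact permutation tests of library measures and cell class shares did not use the pairing. The replicate tag equals the set, so it gave no pairing of its own.

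Differences between set means that changed sign were small and had not passed. That in median counts per kept cell, 34.5, ranged from -26.25 to 108.25 without 1 pair. That in thinned genes per cell, 0.667, was -0.5 at 300 genes or more per barcode and ranged from 0 to 2 without 1 pair. The B-like share difference, 2.41 points, ranged from -1.73 to 4.97 without 1 pair, and that of NK-like cells, 1.65, was -0.52 at Leiden resolution 1.0.

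Among named genes, changes of sign came mostly with the choice of cells. In B-like, T-like and NK-like cells alone, Gm49795 was at -0.063, Ighm at -0.49, Isg20 at 0.082 and Isg15 at 0.014. Others had not passed over all kept cells: Jchain at -6.12, Hsp90ab1 at -0.027, Iglv1 at -1.20, Iglv3 at -0.047, Trdv2-2 at 0.025, Igkc at -0.34 and Lgals1 at -0.057. Without erythroid-like clusters Isg20 was at 0.26, Isg15 at 0.10, Mki67 at 0.38, Rrm2 at 1.09, Ube2c at 0.56, Ccna2 at 0.25, Hsp90ab1 at -0.030 and Cd3d at -0.068. Ighg3 went from -3.32 to 1.09 in DESeq2 and ranged from -4.69 to 3.18 without 1 pair. Genes that passed neither in the main comparison nor under the setting and changed sign were, at 300 genes or more per barcode, mt-Co1 (0.065), Iglv1 (-0.14), Iglv3 (-0.033) and Trdv2-2 (0.17). Without TMM they were mt-Co1 (0.046) and Trdv2-2 (0.016), without the filter mt-Co1 (0.048) and Trdv2-2 (0.0096), without the block Cd3d (-0.0036) and Iglv1 (-0.196), and thinned Iglv1 (-0.022) and Iglv3 (-0.015). Without 1 pair the ranges were -0.11 to 0.22 for Hsp90ab1, -0.16 to 0.47 for Hspa8, -0.044 to 0.11 for mt-Co1, -0.076 to 0.19 for Cd3d, -0.55 to 1.27 for Iglv1, -0.044 to 0.31 for Iglv3, -0.057 to 0.79 for Trbv13-2, -0.18 to 0.12 for Trdv2-2, -0.37 to 5.49 for Igha and -4.05 to 8.23 for Ighg2b. DESeq2 kept the direction and call of 61 of 85 named values and the block's removal 46. Depth limits the standard 5′ pair most, and with 1 library per protocol and set a pair has no spread of its own.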

Other observations

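Besides Ighg2c, Gm19757, Lgals3, Plbd1 and Ngp, the chemokine gene Ccl6 rose with the erythroid-like clusters left out (1.67 ± 0.27 over all kept cells, with 11.9, 56.4 and 14.4 CPM in the first set and 48.4, 74.3 and 73.2 CPM in the second), although over all kept cells it did not pass without the 3′ pair (1.44, adjusted p = 0.128). The 7 genes still lower there were Hbb-bs, Hbb-bt, Hba-a2, Iglc1, Cpne8, and Elane and Prtn3, a pair of granule protease genes of immature granulocytes. Prtn3 was at 33.6, 0 and 45.2 CPM against 11.9, 0 and 0 CPM over all kept cells (-2.61 ± 0.54), and did not pass in DESeq2 (adjusted p = 0.9999) or without the protocol block (adjusted p = 0.9997).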
